A study of Mus musculus with 6 samples.

Results

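Transcription factors that set the identity of dendritic cells and macrophages were followed in cultured mouse dendritic cells kept with or without DB2313. The members were the 9 genes Zbtb46, Id2, Id3, Tcf4, Zeb2, Bcl6, Maf, Nfil3 and Ikzf1, taken by gene name from a table of 54532 genes, and each name matched a single row. None of the 9 was lost to the filter on low counts, which left 14174 genes to test. DB2313 is a small molecule used as an inhibitor of Spi1 (PU.1), the master transcription factor of macrophages and dendritic cells. Per the labels, 3 libraries had Control as their treatment and 3 had DB2313, all from cells grown in culture medium with serum. The labels give no strain, genotype, age, dose or time for either group. The methods of the study describe macrophages from the peritoneum and give a DB2313 dose for macrophages. The paper also treated monocytes with GM-CSF, with or without DB2313, and calls the cells of its DB2313 RNA-seq macrophages. The labels call these cells dendritic cells. In the count table the treated libraries are named after Spi1 and the Control libraries BMDC, and every direction given here rests on this reading of the names. Nothing states that libraries of a group came from separate cultures or animals, so the p-values measure the spread between these libraries, which may be technical.

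The members work against each other in a few known circuits. Tcf4 (E2-2, not the Wnt factor that shares this name) is an E protein that drives plasmacytoid dendritic cells, and Id2 and Id3 are Id proteins, which pair with E proteins and keep them off DNA. Zeb2 is a zinc finger repressor needed by plasmacytoid cells and by the conventional type 2 dendritic cells, and it holds Id2 down. Nfil3 is a basic leucine zipper repressor that acts upstream of Zeb2 and Id2 on the way to conventional type 1 dendritic cells, for which Bcl6, a BTB zinc finger repressor, is needed as well. Zbtb46 marks conventional dendritic cells and their committed precursors, Maf is a large Maf factor of macrophages that activates Il10, and Ikzf1 (Ikaros) is a zinc finger factor of blood cell development.

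With DB2313, Id3 rose and Zeb2 and Nfil3 fell, whereas the other 6 members did not pass the test. Id3 was 1.43-fold of Control, Zeb2 0.718-fold and Nfil3 0.823-fold. Thus 3 of the 9 members were called at an adjusted p under 0.05, where 10.6% of all genes tested were called (4.66% higher and 5.94% lower). The median log2 fold change of the members was -0.19, and that of all genes tested was 8.3e-04, both without an offset for gene length. With such an offset, described below, Zeb2 moved from -0.48 to -0.35 and Tcf4 from -0.25 to -0.09. Nfil3 moved the other way, from -0.28 to -0.32. An unadjusted p under 0.05 was found for 6 members, where 23.3% of all genes had one. In CPM (counts scaled to a common library size) the groups did not overlap for 4 members, which were these 3 and Maf, where 27.4% of all genes tested did not overlap. Adjusted p-values here come from edgeR's quasi-likelihood test over all 14174 genes unless stated otherwise.

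Short windows around the letters GAGGAA, the core of the sites that PU.1 binds, are printed for the called members whose promoters held them, because DB2313 is directed at PU.1 binding. RefSeq promoters (GRCm38.p6, 300 bases from 250 before to 50 after a transcript start) were found for 7 of the 9 members, with 12 starts in all. GAGGAA stood on either strand in 6 of these 12 promoters, which were the 4 of Zeb2, the 1 of Id3 and 1 of Bcl6, where 28.3% of 32851 promoters of this length held it. The promoters of Nfil3, Zbtb46, Id2 and Ikzf1 did not hold these letters. Windows run 5′ to 3′ on the strand of the gene, with the match in capitals, and in Id3 the match reads TTCCTC because it lies on the opposite strand.
Zeb2, chr2:45117543-45117572, minus strand, 148 bases before the annotated gene: aaaggagggcaaGAGGAAagggaggaggga
Zeb2, chr2:45113278-45113307, minus strand, with 7 of its bases in an annotated exon and overlapping the antisense gene Zeb2os: gagggagggagaGAGGAAgggagggaggtg
Zeb2, chr2:45110471-45110500, minus strand, exonic: gaggacttttctGAGGAAgaggtccgccta
Id3, chr4:136143602-136143631, plus strand, exonic: cggtatcagcgcTTCCTCattcctcgcatc
Id3, chr4:136143838-136143867, plus strand, exonic: taggtgtctcttTTCCTCcctctctatctc
In Zeb2 the matches began 118, 16 and 211 bases before their transcript starts, and 2 of the 4 starts lay so close together that they shared the second of these windows. In Id3 the windows shown began their matches 208 bases before and 28 bases after the start, and a further match overlapped the first of these windows. The longer form GAGGAAGT, which contains GAGGAA, was in 0 of the 12 promoters and in 3.2% of all. The E-box CACCTG, read by Zeb2 and by some E proteins, was in 1 of the 12, in Zbtb46, and in 20.2% of all. TTANNTAA, which covers the site of Nfil3, was in 0 of the 12 and in 6.0% of all. These are matches of letters in short windows and say nothing about binding.

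The Id proteins come before their target Tcf4. Id3 (ENSMUSG00000007872, chromosome 4, 136143497 to 136145755, plus strand, GRCm38) was at 40.9, 35.9 and 40.4 CPM in Control replicates 1 to 3 and at 58.8, 55.9 and 53.0 CPM in DB2313 replicates 1 to 3. Every DB2313 library thus lay above every Control library, on 573 to 666 counts in Control and 884 to 1117 counts with DB2313. The mean rose from 39.1 ± 2.75 to 55.9 ± 2.86 CPM (SD, n = 3 each), which is 0.52 ± 0.09 (SE) on the log2 scale (edgeR adjusted p 0.00136). This value stayed between 0.47 and 0.55 in all 15 alternative fits, with a highest adjusted p of 0.0148. In bulk RNA, a change in the number of cells that express a gene and a change in its RNA per cell cannot be told apart.

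Id2 (ENSMUSG00000020644, chromosome 12, 25093799 to 25097140, minus strand) was the most abundant member. It was at 525.9, 501 and 517 CPM in the Control libraries and at 533, 524 and 427 CPM with DB2313. The groups overlapped, with DB2313 replicate 3 below all others and replicates 1 and 2 at the level of Control. The log2 difference of Id2 was -0.06 ± 0.08 (SE, 95% interval from -0.23 to 0.12, edgeR adjusted p 0.744), and without DB2313 replicate 3 it was 0.04. The share of Id3 in the summed counts of both genes, examined after their values were seen, was 7.21%, 6.69% and 7.24% in Control and 9.92%, 9.64% and 11.1% with DB2313. The pool of Id2 and Id3 transcripts thus held relatively more Id3 in each treated library, although Id2 stayed the larger part.

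Tcf4 (ENSMUSG00000053477, chromosome 18, 69343356 to 69689079, plus strand), the E protein that Id2 and Id3 restrain, was low. It was at 27.2, 30.1 and 31.9 CPM in Control and at 22.0, 27.8 and 24.9 CPM with DB2313, so that DB2313 replicate 2 lay within the Control range. The log2 difference of Tcf4 was -0.25 ± 0.11 (SE, interval from -0.49 to -0.02), and it did not pass (p 0.0383 before and 0.182 after adjustment, edgeR). With an offset for gene length it shrank to -0.09 (edgeR adjusted p 0.690). The ratio of Id3 to Tcf4 counts was 1.50, 1.19 and 1.27 in Control and 2.67, 2.01 and 2.13 with DB2313, and the groups did not overlap. On the log2 scale this ratio was 0.78 higher with DB2313. However, its exact two-sided permutation p of 0.1 is the smallest that 3 against 3 libraries can give. It was 0.4 after Benjamini-Hochberg adjustment over the 6 ratios tested. All ratios here use counts without an offset for gene length. The fitted length trend differed between DB2313 and Control by 0.05 (log2) at Id3 and by -0.17 at Tcf4. The ratio of Id2 to Tcf4 counts was 16.2 to 19.3 in Control and 17.1 to 24.2 with DB2313, and these ranges overlapped.

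**Figure D1:**
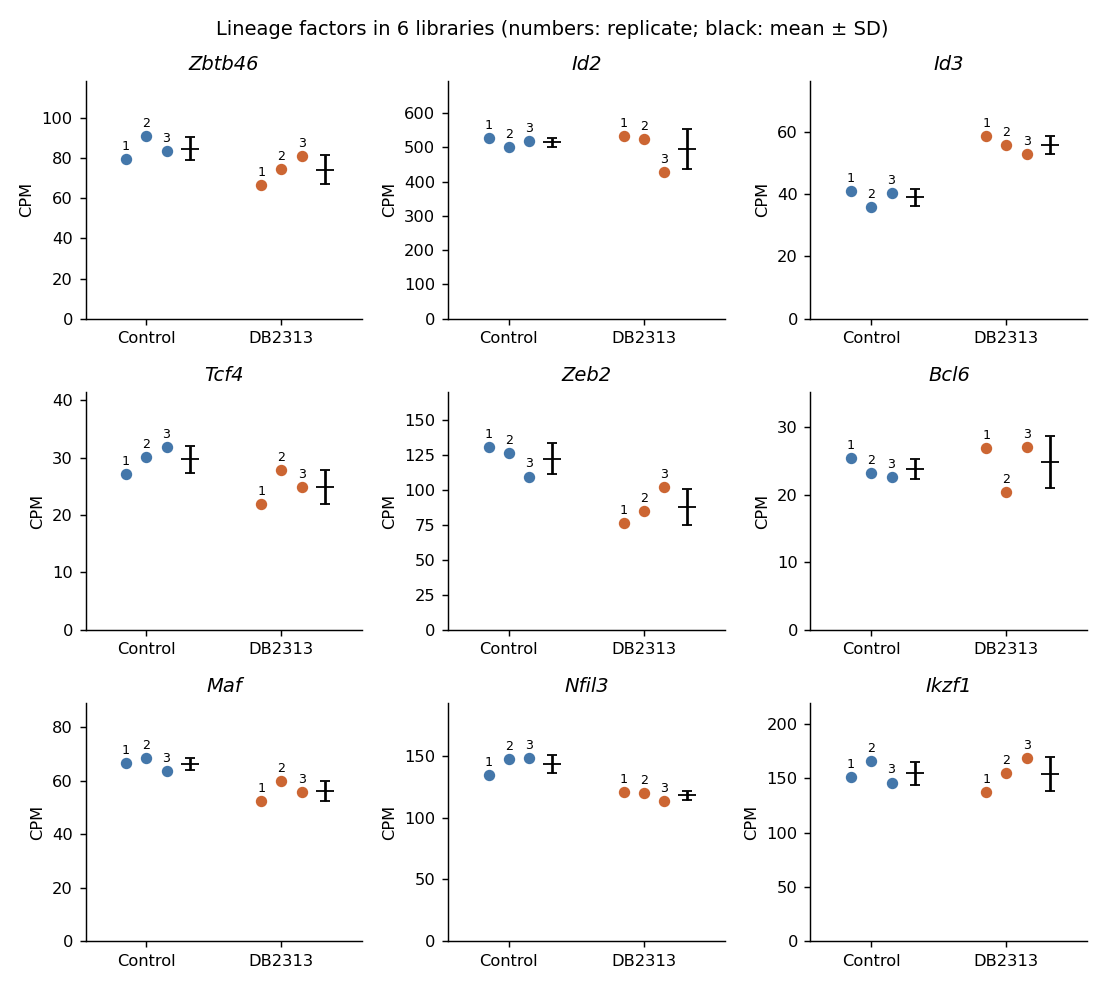
CPM of each of the 9 members in each library, with Control in blue, DB2313 in orange, the replicate number above each point and the mean ± SD of 3 libraries in black, on axes that start at 0. The 3 treated libraries sit at 53.0 to 58.8 CPM for Id3, above all Control libraries, and at 76.0 to 101.8 CPM for Zeb2, below all Control libraries.

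Nfil3, a repressor of Zeb2, and Zeb2 itself both fell. Zeb2 (ENSMUSG00000026872, chromosome 2, 44983632 to 45117395, minus strand) was at 130.4, 126 and 109 CPM in Control and at 76.0, 84.9 and 101.8 CPM with DB2313. All treated libraries were below all Control libraries, although DB2313 replicate 3 came close to Control replicate 3. The mean fell from 121.9 ± 11.1 to 87.6 ± 13.1 CPM (SD, n = 3 each), a log2 difference of -0.48 ± 0.10 (SE, edgeR adjusted p 0.00684). Without Control replicate 1 the log2 difference was -0.43 and the call was lost (edgeR adjusted p 0.0571). Without DB2313 replicate 2 it was -0.45 with an adjusted p of 0.0496, and without DB2313 replicate 3 it was -0.60 with 1.9e-05. The antisense gene Zeb2os overlaps 653 of the 19942 exonic bases of Zeb2 and had 21 to 41 counts per library against at least 1254 for Zeb2.

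Nfil3 (ENSMUSG00000056749, chromosome 13, 52967209 to 52981073, minus strand) was at 134.8, 147 and 148 CPM in Control and at 120.7, 119.6 and 113.6 CPM with DB2313. The 3 treated libraries lay close together and below all Control libraries. The mean fell from 143.3 ± 7.43 to 118 ± 3.81 CPM (SD, n = 3 each), a log2 difference of -0.28 ± 0.07 (SE, edgeR adjusted p 0.0207). This call was lost without Control replicate 2 (-0.26, edgeR adjusted p 0.121), without Control replicate 3 (-0.25, 0.120) and without DB2313 replicate 2 (-0.29, 0.0966). The ratio of Nfil3 to Zeb2 counts was 1.03 to 1.36 in Control and 1.12 to 1.59 with DB2313, so that the factors kept overlapping proportions. The ratio of Zeb2 to Id2 counts was 0.248, 0.252 and 0.211 in Control and 0.143, 0.162 and 0.239 with DB2313. Here DB2313 replicates 1 and 2 were below Control, but replicate 3 was within its range (log2 difference -0.42, exact two-sided permutation p = 0.2, adjusted 0.4).

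Zbtb46 and Bcl6 are both BTB zinc finger factors of conventional dendritic cells. Zbtb46 (ENSMUSG00000027583, chromosome 2, 181387762 to 181459426, minus strand) was at 79.9, 91.2 and 83.5 CPM in Control and at 66.7, 74.8 and 81.4 CPM with DB2313. Only DB2313 replicate 3 reached into the Control range. Zbtb46 differed by -0.19 ± 0.09 on the log2 scale (SE, interval from -0.38 to -0.0031) and did not pass (edgeR adjusted p 0.205). Without DB2313 replicate 3 it was -0.26 with an edgeR adjusted p of 0.0389, the only one of the 15 alternatives in which Zbtb46 passed.

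Bcl6 (ENSMUSG00000022508, chromosome 16, 23965052 to 23988852, minus strand) was at 25.4, 23.2 and 22.7 CPM in Control and at 27.0, 20.4 and 27.1 CPM with DB2313. The treated libraries enclosed the Control range, with replicate 2 below it and replicates 1 and 3 above it. The log2 difference of Bcl6 was 0.06 ± 0.12 (SE, interval from -0.20 to 0.32, edgeR adjusted p 0.825), and it turned to -0.0054 without DB2313 replicate 1 and to -0.0081 without DB2313 replicate 3. The ratio of Bcl6 to Zbtb46 counts was 0.255 to 0.318 in Control and 0.273 to 0.405 with DB2313, with overlap (log2 difference 0.25, exact permutation p = 0.2, adjusted 0.4).

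Maf (ENSMUSG00000055435, chromosome 8, 115682942 to 115707794, minus strand) was at 66.5, 68.5 and 63.8 CPM in Control and at 52.4, 60.0 and 55.7 CPM with DB2313. All treated libraries lay below all Control libraries, yet the change did not pass after adjustment. The log2 difference of Maf was -0.24 ± 0.08 (SE, interval from -0.42 to -0.07), with p 0.0103 before and 0.0781 after adjustment (edgeR). In the 15 alternatives its sign was always negative and its adjusted p lay between 0.0729 and 0.277. An antisense gene, Gm15655, overlaps 440 exonic bases of Maf and had 0 counts in every library. The ratio of Zbtb46 to Maf counts, a dendritic cell against a macrophage factor, was 1.20 to 1.33 in Control and 1.25 to 1.46 with DB2313. The log2 difference of this ratio was 0.05 (exact permutation p = 0.7, adjusted 0.7), and it turned to -0.02 without DB2313 replicate 3.

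Ikzf1 (ENSMUSG00000018654, chromosome 11, 11685003 to 11772926, plus strand) was at 151, 166 and 146 CPM in Control and at 137, 155 and 168.6 CPM with DB2313. The treated libraries spread over and beyond the Control range. Ikzf1 had a log2 difference of -0.0071 ± 0.08 (SE, interval from -0.19 to 0.17, edgeR adjusted p 0.975), whose sign turned in 6 of the 15 alternatives, library totals and the gene-length offset among them.

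**Figure D2:**
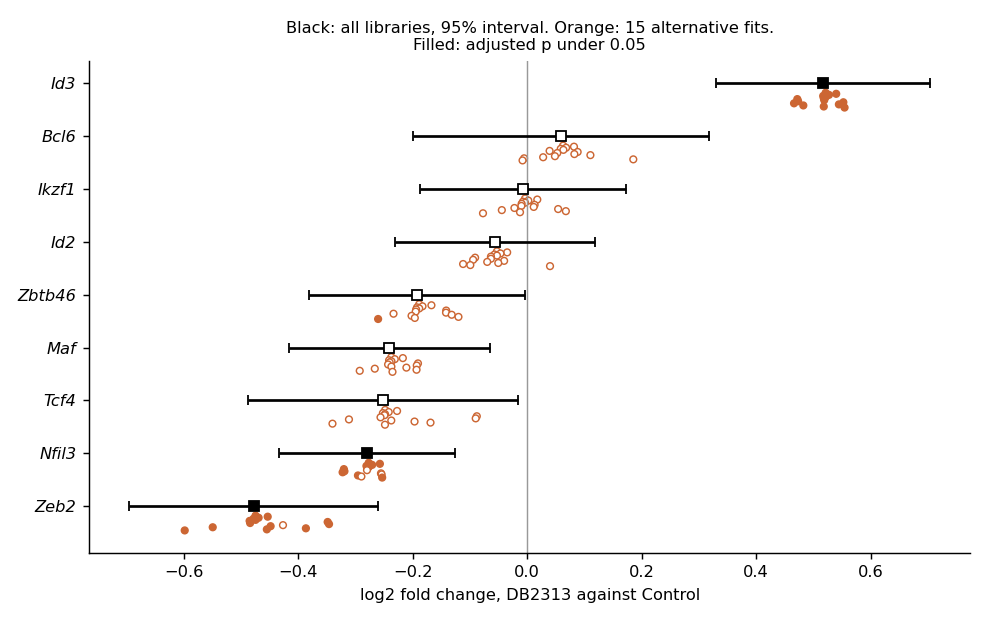
Log2 fold change of each member (x axis, DB2313 against Control) in the fit of all 6 libraries (black squares with 95% intervals) and in 15 alternative fits (orange), with filled symbols for an adjusted p under 0.05. Id3 is filled in all 15 alternatives, Zeb2 in 14 and Nfil3 in 11, whereas Id2, Ikzf1 and Bcl6 lie on both sides of 0.

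The members varied among the treated libraries by gene length. The 3 members shorter than 3000 bp (Id2, Id3 and Nfil3) were each highest in DB2313 replicate 1 and lowest in replicate 3. Of the 6 longer members, 5 were lowest in DB2313 replicate 1, the exception being Bcl6, which was lowest in replicate 2. The trend of each library with gene length, fitted over all genes tested, was -0.24, -0.06 and 0.10 (log2) at the length of Zeb2 in DB2313 replicates 1 to 3, and 0.05, 0.15 and 0.01 in Control replicates 1 to 3. At the length of Id3 it was 0.11, 0.04 and -0.06 in the DB2313 libraries and -0.01, -0.05 and 0.02 in the Control libraries. With an offset that takes this trend out, Zeb2 (-0.35, adjusted p 0.00269), Id3 (0.47, adjusted p 4.3e-04) and Nfil3 (-0.32, adjusted p 0.00261, all edgeR) were again the members called.

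Levels were compared between genes only per length, as RPKM from the deposited gene length. In Control, Id2 was highest at 211 ± 5.26 RPKM (SD, n = 3), followed by Nfil3 (70.7 ± 3.67), Ikzf1 (26.7 ± 1.81), Id3 (21.8 ± 1.54), Zbtb46 (9.98 ± 0.679), Maf (8.04 ± 0.287), Zeb2 (6.12 ± 0.558), Bcl6 (3.55 ± 0.216) and Tcf4 (1.09 ± 0.0862). No neighbours in this order overlapped between their 3 Control libraries. With DB2313, Id3 (31.2 ± 1.59 RPKM) stood above Ikzf1 (26.6 ± 2.70), and Zeb2 (4.39 ± 0.657) and Bcl6 (3.71 ± 0.568) overlapped. The deposited length joins the exons of all transcripts and is 27382 bp for Tcf4 and 19942 bp for Zeb2, whereas their longest annotated transcripts have 8577 and 9124 bp. With the length of the longest transcript, an alternative chosen after these lengths were seen, Id3 was at 30.6 and Ikzf1 at 29.9 RPKM in Control, and Zeb2 (13.4) stood above Maf (10.4). The order of these pairs therefore depends on the length used, while Id2 stayed highest and Tcf4 lowest.

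**Figure D3:**
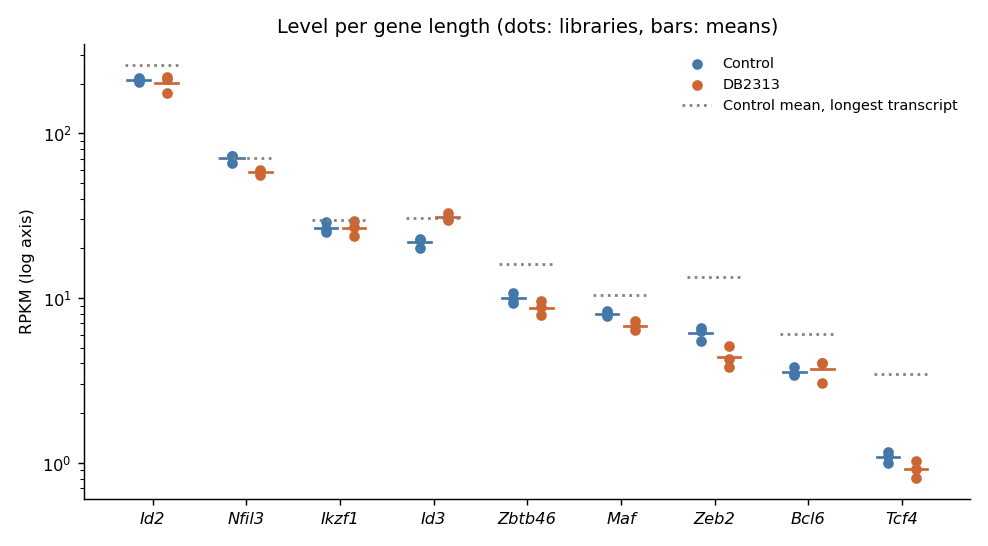
Level per gene length of each member in each library (RPKM, log axis), with bars for the means of Control (blue) and DB2313 (orange) and dotted lines for the Control mean with the longest transcript. Id2 at 211 RPKM and Tcf4 at 1.09 RPKM mark the ends of the Control order.

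The partners and relatives of the members were described from lists written with earlier results known. Their counts stand beside 10.6% of all genes tested that were called (4.66% higher and 5.94% lower). Of the 7 tested genes of the E protein and Id family, 2 rose and 1 fell (42.9% called), with a median log2 fold change of 0.10. Id1, a further Id protein, rose from 16.8 ± 2.20 to 23.7 ± 4.58 CPM (log2 fold change 0.50, edgeR adjusted p 0.0413), but the groups overlapped and the call held in only 1 of the 6 fits that left out 1 library. Tal1, a blood stem cell factor that pairs with E proteins, rose by a log2 fold change of 0.37 (adjusted p 0.0489), and Cbfa2t3, a corepressor that acts with Tcf4, fell by 0.30 on the log2 scale (adjusted p 0.0282, edgeR). Their calls held in 2 and 3 of those 6 fits. The other E proteins did not pass, with log2 fold changes of 0.10 for Tcf3 and 0.0026 for Tcf12.

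Of the 3 tested genes around Zeb2, its paralogue Zeb1 fell from 42.1 ± 1.94 to 30.2 ± 1.40 CPM (log2 fold change -0.48 ± 0.09, SE, edgeR adjusted p 0.0028), and this call held in all 15 alternatives. Both Zeb genes thus had a log2 fold change of -0.48 in the fit of all libraries. Over the 15 alternatives Zeb2 ranged from -0.60 to -0.35 and Zeb1 from -0.51 to -0.41. The corepressors Ctbp1 (-0.08) and Ctbp2 (-0.25), which Zeb factors recruit, did not pass. Of the 11 tested corepressors and kin of Bcl6, only the corepressor Bcor fell (-0.27, edgeR adjusted p 0.0402, held in 1 of 6 fits without a library), and Ncor1 was at -0.11 without passing.

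In the Ikaros family 1 of 4 tested genes, Ikzf4, fell (-0.28, edgeR adjusted p 0.0479), a call that held in 1 of 6 fits without a library. Of the 12 clock genes tested, which include the relatives of Nfil3 that share its sites, only Clock fell (-0.36, edgeR adjusted p 0.0448, held in 1 of 6 fits). The median log2 fold changes of the Zeb, Bcl6, Ikaros and clock lists were -0.25, -0.11, -0.0061 and 0.04. In the same order, 33.3%, 9.09%, 25% and 8.33% of their tested genes were called, where 10.6% of all genes tested were.

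Among 36 other lineage factors, all tested, 3 rose and 7 fell, with a median log2 fold change of -0.06. Thus 27.8% of them were called, where 10.6% of all genes tested were. At a mean log2 CPM of at least 1, the largest changes were those of Bcl11a, a factor of plasmacytoid cells, which rose from 5.24 ± 0.716 to 12.6 ± 4.38 CPM (log2 fold change 1.27, adjusted p 0.00264), of Nr4a3, a nuclear receptor of migrating dendritic cells, which fell from 210.5 ± 24.5 to 120.5 ± 6.61 CPM (-0.80, adjusted p 2.9e-05), and of Egr2, a zinc finger factor, which fell by 0.67 on the log2 scale (adjusted p 0.00204, all edgeR). These calls held in all 15 alternatives. Spi1 itself did not pass (-0.15, edgeR adjusted p 0.206).

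For each member called, the well-expressed protein-coding genes with the most similar pattern were found by Pearson's r of log2 CPM over the 6 libraries, among 7979 genes. Id3 was followed most closely by Dbi and Zranb2 (r = 0.999 each), Zeb2 by Ssfa2 and Hif1a (r = 0.999 and 0.997) and Nfil3 by Thoc1 (r = 0.997). Zranb2, Ssfa2 and Thoc1 did not themselves pass (edgeR adjusted p 0.0787, 0.0993 and 0.222). Dbi and Hif1a passed (edgeR adjusted p 4.1e-04 and 0.0327), the latter in only 1 of 6 fits without a library. With 6 libraries in 2 groups such values of r are common, since 147, 168 and 145 genes had r over 0.95 with Id3, Zeb2 and Nfil3.

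**Figure D4:**
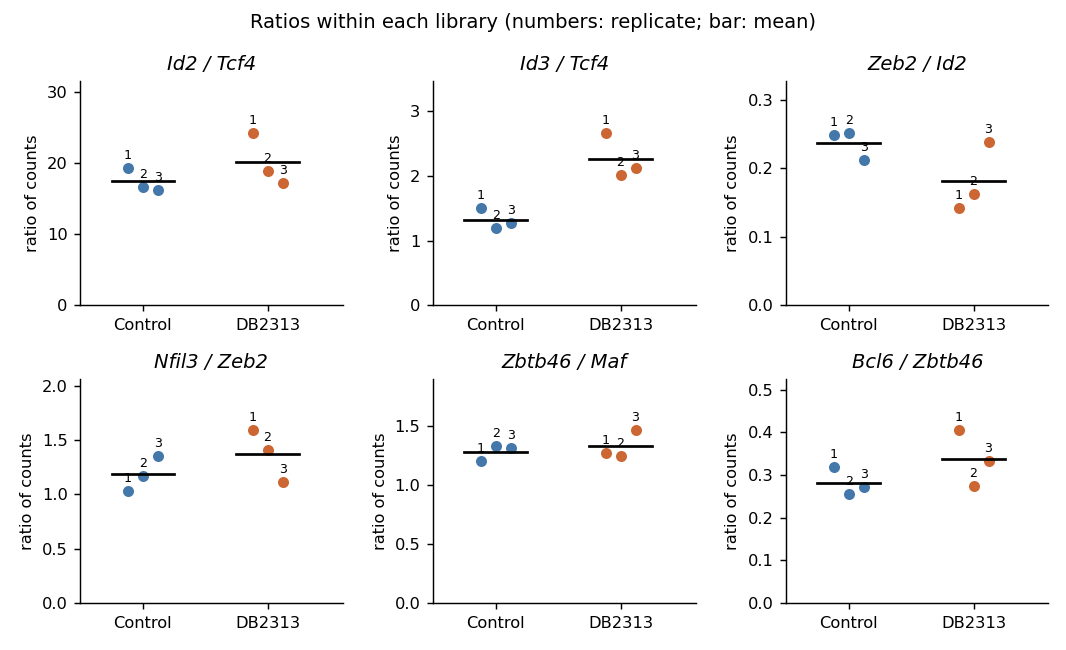
Ratio of the counts of 2 members within each library for the 6 pairs compared, with the replicate number above each point and the mean as a bar, on axes that start at 0. Only the ratio of Id3 to Tcf4 separates the groups, at 1.19 to 1.50 in Control and 2.01 to 2.67 with DB2313.

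The cell types behind the members' values were read from marker lists. Markers of conventional dendritic cells summed to 13780 to 14000 CPM in Control and 11840 to 13680 CPM with DB2313, and 1 of 13 tested was called, Itgax (CD11c), which fell by 0.58 on the log2 scale. With the gene-length offset 5 of these markers were called lower, and 4 without DB2313 replicate 1 or without DB2313 replicate 3. Macrophage markers summed to 12570 to 14090 and 11090 to 12220 CPM, with 1 of 17 tested higher and 11 lower and a median log2 fold change of -0.36, and 6 were lower without DB2313 replicate 2. A single gene made up much of each sum. In Control, Cd74 held 6548 of a mean of 13880 CPM and Lyz2 8738 of a mean of 13120 CPM. The other conventional markers lay between 1788 (H2-Aa) and 2.60 CPM (Btla) in Control. The other tested macrophage markers lay between 1144 (Gpnmb) and 1.63 CPM (Cd163). The type 2 marker Cd209a had only 0 to 4 counts per library, and 3 macrophage markers (Timd4, Folr2 and Vsig4) had 0 to 3 counts. Zeb2 and Nfil3 fell beside 11 of 17 macrophage markers, C1qa (-0.97), Cd14 (-0.88) and Mrc1 (-0.71) among them, and the part of these cells in the result was not tested. Plasmacytoid cells use Tcf4 and Zeb2. Of their 17 listed markers, 4 were under 1 CPM, namely Siglech (0 to 8 counts per library), Ly6d (0 to 7), Cox6a2 (1 to 10) and Klk1 (0). Others were well above that in Control, such as Bst2 (155.9 CPM), Spib (76.1 CPM) and Tlr9 (43.6 CPM). Of the 13 tested, 3 rose (Bcl11a, Irf7 and Lair1). The list summed to 962.8 to 1065 CPM in Control and 1061 to 1084 CPM with DB2313. Ly6c2, also a listed monocyte marker, held 548.8 of a Control mean of 1001 CPM. Of the type 1 markers, for cells that use Id2, Nfil3 and Bcl6, 2 of 12 tested rose (Clec9a, 2.12, from 0.768 to 3.36 CPM, and Cd36, 0.35) and 1 fell (Batf3, -0.57), at sums of 1091 to 1135 and 1079 to 1100 CPM. Of the type 2 markers 2 of 12 rose and 3 fell, at sums of 1358 to 1448 and 1316 to 1392 CPM. Neutrophil markers summed to 5627 to 6211 CPM in Control and 6071 to 7551 CPM with DB2313, with 5 of 16 higher and 1 lower, and their part in the result was not tested. Without DB2313 replicate 3, 10 were higher, and 3 without Control replicate 1 or without DB2313 replicate 2. Monocyte markers summed to 1086 to 1143 CPM in Control and 1179 to 1225 CPM with DB2313, with 1 of 9 tested higher and 1 lower. Markers of mast cells and basophils summed to 2526 to 2730 and 2583 to 3092 CPM, with 2 of 10 higher. Of the T cell markers 1 of 15 rose. Of the natural killer and innate lymphoid cell markers 1 of 11 fell, and of the B cell markers 1 of 3. None of these lymphoid lists summed to more than 488.6 CPM in any library. Over all genes tested, 10.6% were called. The part of these cells in the result was not tested. Id2, Id3, Bcl6 and Ikzf1 are also used by lymphocytes and Zeb2 by monocytes, and the libraries do not show which cells carried each member.

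Each Control library held 16146743 to 16299657 counts and each DB2313 library 16310491 to 19764677. Pairs of libraries of a group were compared over the genes above a minimum count in the pair. Control libraries differed from each other by a chi-square of 5.03 to 5.58 per degree of freedom. DB2313 libraries differed by 7.96 to 19.4, and all of these values were above sampling noise. The largest distance was that of DB2313 replicates 1 and 3, which also lay farthest apart among the treated libraries in the length trend at Zeb2 and Id3.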

How the data were processed

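RNA-seq was performed on 6 libraries of mouse dendritic cells, with groups taken from the treatment in the labels. What the authors deposited is a table of whole-number read counts for each gene, without normalization, beside a gene length. The methods of the study name LifeScope for alignment and counting, whereas the submitters' processing notes name CASAVA 1.8, HISAT2 2.0.5 and featureCounts 1.5.0-p3, and which made the counts could not be settled. Genome build, strandedness and the treatment of reads with several matches are not given in the sources used here. Without strand, reads of a gene and its antisense partner cannot be told apart. The gene starts and ends equal those of GENCODE M21 for 98.33% of the 54409 identifiers in common, members included, so coordinates are given as GRCm38.

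The test was edgeR 4.0.16 in R 4.3.3 (glmQLFit, TMM, filterByExpr, group as the only term, Benjamini-Hochberg). SE was derived from the F statistic, and intervals are at 95%. The study used DESeq2, here an alternative (1.42.0), as was limma 3.58.1. Ratios were compared by exact permutation. Scripts were tested on simulated data. The members and lists were chosen with earlier results of these data known. In each list, the up to 3 called genes with the largest change and a mean log2 CPM of at least 1 were named, and for each called member the 2 most similar genes with a mean log2 CPM of at least 4. Spi1, E proteins and corepressors that did not pass were named after their values were seen. Copies of the members were searched with blastn 2.17.0 among the GENCODE transcripts (95% identity over 100 bp), and only the antisense genes Zeb2os and Gm15655 were found. Some genes that these rules named are not reported here.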

Additional observations from a re-analysis of the deposited data

How the results depend on the processing

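The 15 alternatives changed the scaling (DESeq2 size factors or library totals), the filter (none, or at least 10 counts on average), the tool (DESeq2 or limma-voom) or the model (a replicate block, a lowess offset for gene length with a span of 0.3, or the block and the offset), or left out 1 of the 6 libraries. Id3 was called in all 15, Zeb2 in 14 and Nfil3 in 11, and the causes of the losses were not tested. In the fits without 1 library, 1 member was called higher in each and 1 to 3 were called lower, against 2 with all libraries. The number of genes called ranged from 739 to 2408 (328 to 1097 higher, 411 to 1311 lower), against 1503 with all libraries. It was 846, 794 and 854 without Control replicates 1, 2 and 3, 739 without DB2313 replicate 2 and 2408 without DB2313 replicate 3. These fits have fewer samples.

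Whether equal replicate numbers mark paired libraries is not known. The correlations of same-numbered deviations from the group means were 0.0035, -0.02 and -0.12. With 3 libraries a group, and a length trend that differs among the DB2313 libraries, these values cannot settle it. With the replicate block 1 member was called lower, because Nfil3 had an edgeR adjusted p of 0.0649.

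Ikzf1, at -0.0071 with all libraries, turned to 0.018 with library totals, 0.0020 with no filter, 0.0130 with the length offset and 0.0114 with the block and the length offset together, and it ranged from -0.077 to 0.068 over the fits that left out 1 library. In those fits Bcl6 ranged from -0.0081 to 0.19, Id2 from -0.11 to 0.040, Tcf12 from -0.018 to 0.031 and the log2 ratio of Zbtb46 to Maf from -0.022 to 0.091. None of these genes passed in any alternative. The ratio could not pass, because its exact permutation p cannot go below 0.1 even with all 6 libraries. Tcf4 and Bcl6 rest on the fewest counts (363 to 556 and 362 to 451 per library), and every member on 3 libraries a group.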
